A study of Homo sapiens with 6 samples.

Results

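EFCAB7 and 9 genes of the Hedgehog pathway at the primary cilium were examined in SK-Hep1, a human cell line established from an adenocarcinoma of the liver. The 10 genes are EFCAB7, IQCE, EVC, EVC2, SMO, PTCH1, GLI1, GLI2, GLI3 and SUFU. They are represented by 25 of the 54613 probe sets on the array other than controls, each annotated to 1 gene. A probe set was called expressed when its log2 expression averaged at least 4 over the 6 arrays. By that rule 13 of the 25 probe sets were expressed, covering 9 of the 10 genes, and 22408 of all probe sets were. EFCAB7 was chosen by its low log2 expression in anti-miR-21 arrays relative to mock arrays in this same comparison, so its values are described and not tested. The other 9 genes were listed for their place in the pathway, with earlier results of these arrays known.

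The study compared cells transfected with 20 nM of anti-miR-21 with mock-treated cells that received no oligonucleotide, 3 arrays per group, 1 array per sample. Plating preceded the lipid transfection by 24 hours, and cells were collected 16 hours after it. The replicates are called biological in the labels, with no statement on separate days or passages, so a p-value here covers only the spread among these samples. The mock treatment holds no control oligonucleotide, so an effect of the target and an effect of any transfected oligonucleotide cannot be told apart. The labels give total RNA, while the collection protocol cites an Argonaute immunoprecipitation, and which RNA was labelled is not settled by either.

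Hedgehog signals are read out at the primary cilium. Without ligand, the receptor PTCH1 keeps the membrane protein SMO inactive, and SUFU holds the GLI transcription factors in check. Ligand binding to PTCH1 lets SMO enter the cilium, and activated GLI proteins then turn on targets that include PTCH1 and GLI1 themselves. EFCAB7 and IQCE anchor the EVC and EVC2 proteins in a zone near the ciliary base, where they help to pass the signal from SMO on towards the GLI proteins.

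The sequences that bear on the comparison are the microRNA that the oligonucleotide is directed against and a pair of promoters. The mature miR-21 lies at chr17:59841273-59841294 on the plus strand (RefSeq, GRCh38.p14), and the capitals mark its seed, the stretch that pairs with target messages.
hsa-miR-21-5p: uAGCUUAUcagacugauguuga
The EFCAB7 promoter is shown because it overlaps that of a neighbouring gene, ITGB3BP, which is also measured. The window runs over chr1:63523275-63523574 on the plus strand, from 250 bases before to 50 bases after the EFCAB7 start. The start of ITGB3BP lies 300 bases away on the opposite strand, and the capitals mark the 201 bases common to both promoter windows.
EFCAB7 promoter: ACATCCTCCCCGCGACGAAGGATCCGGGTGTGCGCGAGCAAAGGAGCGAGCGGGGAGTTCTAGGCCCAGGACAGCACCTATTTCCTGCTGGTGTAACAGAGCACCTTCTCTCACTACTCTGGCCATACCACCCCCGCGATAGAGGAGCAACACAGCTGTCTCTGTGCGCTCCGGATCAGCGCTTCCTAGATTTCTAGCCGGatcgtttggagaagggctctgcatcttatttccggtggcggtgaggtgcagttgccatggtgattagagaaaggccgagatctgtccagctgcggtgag
PTCH1 is itself a GLI target and is measured here. Of its several promoter windows only 1 holds a match to the GLI motif, and that window is shown for this reason. It runs over chr9:95509217-95509516 on the minus strand, and the capitals mark a copy of the GLI consensus motif TGGGTGGTC.
PTCH1 promoter: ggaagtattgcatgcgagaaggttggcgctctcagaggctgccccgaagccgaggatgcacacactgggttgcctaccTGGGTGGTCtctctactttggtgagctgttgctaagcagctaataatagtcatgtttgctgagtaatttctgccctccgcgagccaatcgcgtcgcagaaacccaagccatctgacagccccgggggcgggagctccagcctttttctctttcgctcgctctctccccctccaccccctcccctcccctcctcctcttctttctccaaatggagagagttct
RefSeq promoter windows were matched by symbol for 7 of the 10 genes, with 12 windows in all. GLI1, GLI3 and IQCE had no entry. The motif was searched on both strands as TGGGTGGTC and its reverse complement GACCACCCA. It occurred in this 1 of the 12 windows and in 83 of 35116 windows of the same length (0.236%). A match describes the letters only and does not show that GLI proteins bind there.

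The share of variance on the first principal component of expressed probe sets was 50.4%, and anti-miR-21 replicate 1 lay at 3.51 on it, between the other anti-miR-21 arrays at 20.1 and 19.6 and the mock arrays at -20.0 to -7.25. Identity markers were mixed. Among hepatocyte markers AFP and SERPINA1 were expressed and ALB, APOA1, APOB and TTR lay below the threshold. Among endothelial markers TEK was expressed and PECAM1, VWF, CDH5 and KDR lay below it, whereas all 5 mesenchymal markers (VIM, CAV1, FN1, SPARC and THY1) were expressed. The epithelial markers EPCAM, KRT8, KRT18 and KRT19 and the monocyte marker CD14 were expressed, and CDH1, PTPRC and CD3E lay below. No expressed marker passed the test between groups on its representative probe set, where 2.13% of all genes did. In these bulk samples, fewer cells with a transcript and less transcript per cell cannot be told apart.

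EFCAB7 was lower in anti-miR-21 cells than in mock cells on its single probe set, 226800_at. Log2 expression of EFCAB7 read 7.03, 7.32 and 7.41 with anti-miR-21, against 8.82, 8.67 and 8.54 in the mock arrays. All anti-miR-21 arrays lay below all mock arrays, with more than 1 log2 unit between the groups. The means were 7.25 ± 0.20 in anti-miR-21 cells and 8.68 ± 0.14 in mock cells (SD, n = 3 each). The log2 difference of -1.43 corresponds to a 2.69-fold lower level, the third-largest drop among the 10848 genes with an expressed probe set. The lowest EFCAB7 value came from anti-miR-21 replicate 1, the anti-miR-21 array nearest to the mock arrays on the first principal component. With 1 probe set for the gene, no second probe set bears on the value.

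The partners of EFCAB7 at the ciliary base showed no such drop. IQCE, which binds EFCAB7, had log2 expression of 9.46, 9.45 and 9.49 in anti-miR-21 arrays, against 9.49, 9.49 and 9.42 in mock arrays on its brighter probe set. The groups overlapped, and the log2 difference was 0.00 ± 0.05 SE (95% interval -0.11 to 0.12, limma adjusted p = 0.987). Its dimmer probe set differed by -0.03 (95% interval -0.23 to 0.17). EVC, a membrane protein mutated in Ellis-van Creveld syndrome, had 9.04, 9.19 and 9.01 in anti-miR-21 arrays, against 9.18, 8.94 and 9.17 in mock arrays. Its groups overlapped too, with a log2 difference of -0.02 (95% interval -0.22 to 0.18, limma adjusted p = 0.928). EVC2, its partner in the same complex, was near the threshold, at 4.47, 4.59 and 4.71 in anti-miR-21 arrays, against 4.60, 4.32 and 4.68 in mock arrays. The difference of 0.05 had a 95% interval of -0.20 to 0.31 (limma adjusted p = 0.831). Both other EVC probe sets and the other EVC2 probe set lay below the threshold.

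Taken within each array, the gap between EFCAB7 and its binding partner moved with the group. This largely restates the drop of EFCAB7, because IQCE and EVC hardly differed between the groups. EFCAB7 minus IQCE came to -2.43, -2.13 and -2.09 log2 units in anti-miR-21 arrays, against -0.67, -0.82 and -0.87 in mock arrays. EFCAB7 minus EVC came to -2.01, -1.86 and -1.60 in anti-miR-21 arrays, against -0.36, -0.27 and -0.63 in mock arrays. These gaps rest on probe sets of different brightness, so only their change between groups can be read, and they are given without a test because EFCAB7 was picked for this contrast.

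**Figure D1:**
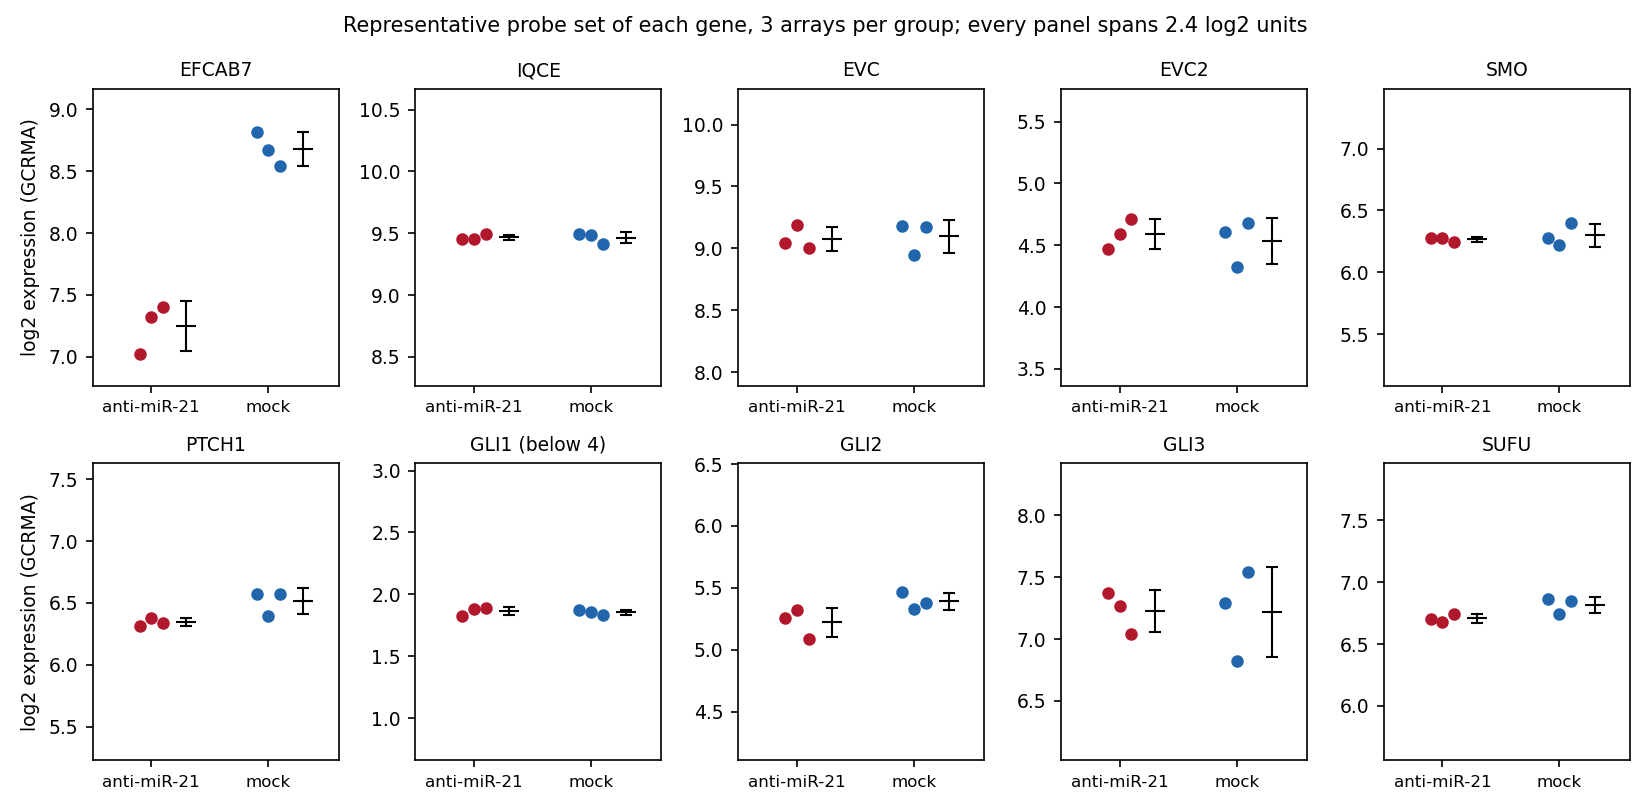
Log2 expression (vertical axis, GCRMA values) of the representative probe set of each of the 10 genes in 3 anti-miR-21 arrays (left, red) and 3 mock arrays (right, blue), with the mean and SD of each group in black and the same vertical span in every panel. EFCAB7 lies at 7.03 to 7.41 in anti-miR-21 arrays and 8.54 to 8.82 in mock arrays, while the other genes differ by at most 0.17 log2 units between group means.

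Of the 12 expressed probe sets of the other genes, which cover 8 of the 9, none was called higher or lower in anti-miR-21 cells (limma, Benjamini-Hochberg adjusted p under 0.05). Over all expressed probe sets 2.17% were called, 1.10% higher and 1.07% lower. The smallest adjusted p was 0.251. At an unadjusted p under 0.05, 1 of the 12 passed (PTCH1), against 17.8% of all expressed probe sets. The differences ran from -0.20 to 0.05 with a median of -0.02, beside a median of -0.0027 over all expressed probe sets, and 4 were positive and 8 negative. The groups did not overlap for 2 of the 12, where they did not for 24.0% of all expressed probe sets. Over the 12 probe sets the 95% intervals reached down to -0.60 and up to 0.45. With 3 arrays per group, a shift inside a probe set's own interval is not excluded. The intervals are not adjusted for the number of probe sets, so a shift larger than an interval's half-width could also go uncalled.

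The receptor and the signal transducer were both expressed. PTCH1, the Hedgehog receptor and a GLI target, had 6.31, 6.38 and 6.34 in anti-miR-21 arrays, against 6.57, 6.39 and 6.58 in mock arrays on its 1 expressed probe set, 209815_at. The highest anti-miR-21 array lay just below the lowest mock array, mock replicate 2. The log2 difference was -0.17 ± 0.07 SE (95% interval -0.33 to -0.01), which did not pass after adjustment (limma adjusted p = 0.251). The other 4 PTCH1 probe sets lay below the threshold. SMO, the transducer, had 6.27, 6.28 and 6.24 in anti-miR-21 arrays, against 6.28, 6.22 and 6.40 in mock arrays. Its groups overlapped, with a log2 difference of -0.03 (95% interval -0.18 to 0.11, limma adjusted p = 0.819).

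Of the GLI factors, GLI2 and GLI3 were expressed and GLI1 was not. GLI1, an activator whose transcript is a standard readout of pathway activity, had a single probe set at 1.83, 1.88 and 1.89 in anti-miR-21 arrays, against 1.87, 1.86 and 1.83 in mock arrays. These values lay far below the threshold in every array, and a shift at that level could not be measured. GLI2, the main activator, had 5.26, 5.32 and 5.09 in anti-miR-21 arrays, against 5.47, 5.33 and 5.38 in mock arrays on its brightest probe set, 228537_at. The groups nearly touched without overlapping, and the difference of -0.17 ± 0.07 SE did not pass (95% interval -0.35 to 0.01, limma adjusted p = 0.299).

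The other 2 GLI2 probe sets had overlapping groups. Probe set 207034_s_at had 4.28, 4.62 and 4.60 in anti-miR-21 arrays, against 5.06, 4.49 and 4.57 in mock arrays, a difference of -0.20 in the same direction (95% interval -0.60 to 0.20). Mock replicate 1 stood above the other 5 arrays. Probe set 208057_s_at, the expressed member nearest to the threshold with a mean of 4.07, differed by 0.02 (95% interval -0.09 to 0.13). GLI3, a repressor when signalling is off, had 7.37, 7.27 and 7.04 in anti-miR-21 arrays, against 7.29, 6.82 and 7.54 in mock arrays. Its mock arrays spread over 0.36 log2 units (SD, n = 3), the widest spread among the representative probe sets of the 9 expressed genes. The difference of 0.01 had a 95% interval of -0.43 to 0.45 (limma adjusted p = 0.983), and a second GLI3 probe set differed by -0.01 (95% interval -0.30 to 0.28).

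SUFU, the inhibitor that binds GLI proteins, had 6.70, 6.68 and 6.75 in anti-miR-21 arrays, against 6.86, 6.74 and 6.85 in mock arrays. The groups overlapped only through mock replicate 2 and anti-miR-21 replicate 3. The log2 difference was -0.11 ± 0.05 SE (95% interval -0.24 to 0.02, limma adjusted p = 0.360). The other 3 SUFU probe sets lay below the threshold. In all, the 12 member probe sets below the threshold had values between 1.83 and 3.46 on every array, with group differences between 0.00 and 0.04. The nearest of them to the threshold was a GLI3 probe set with a mean of 3.43.

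**Figure D2:**
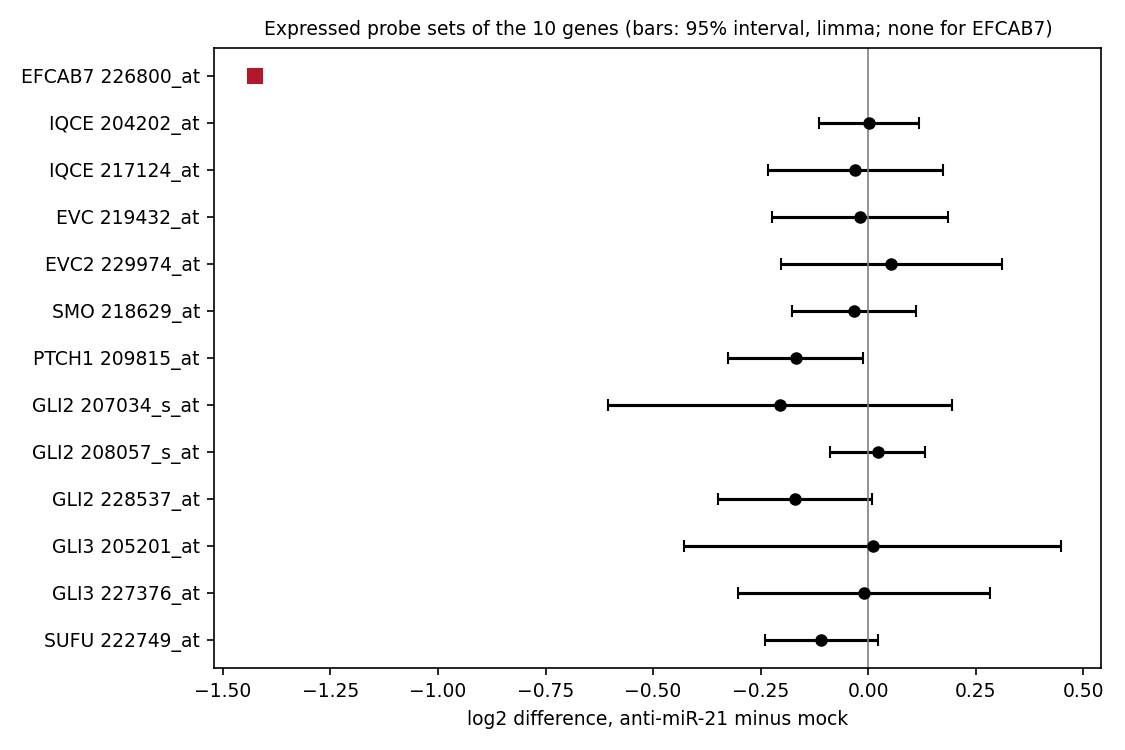
Log2 difference, anti-miR-21 minus mock (horizontal axis), for the 13 expressed probe sets of the 10 genes, with 95% intervals from limma for all but EFCAB7, which is plotted as a description. EFCAB7 stands at -1.43, and the other points lie between -0.20 and 0.05.

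The rest of the pathway upstream of SMO was sparsely expressed. Of 7 genes for Hedgehog ligands and their release, the ligand genes SHH, IHH and DHH and the release factors DISP1 and SCUBE2 lay below the threshold. The 2 expressed members were HHAT, the acyltransferase that modifies the ligands, at 0.06 (limma adjusted p = 0.714), and DISP2, a relative of the ligand exporter, at -0.13 (limma adjusted p = 0.334). Of 4 further receptors and co-receptors with a single-gene probe set, only BOC, a co-receptor, was expressed, with a difference of -0.11 (limma adjusted p = 0.621). CDON, GAS1 and HHIP lay below the threshold. No gene of these lists was called, where 2.13% of all 10848 genes were.

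Among regulators that act between SMO and the GLI proteins, 21 of 22 measured genes were expressed. STK36, a kinase related to the Drosophila pathway component Fused, fell, none rose and 20 did not pass, where 1.22% of all genes fell and 0.913% rose. STK36 had 7.26, 7.19 and 7.40 in anti-miR-21 arrays, against 7.83, 7.66 and 7.95 in mock arrays. The groups did not overlap, and STK36 was 1.44-fold lower in anti-miR-21 cells (log2 difference -0.53 ± 0.09 SE, limma adjusted p = 0.0430). Its other probe sets, of a type that can cross-hybridise, lay at -0.29 and -0.40 and did not pass (limma adjusted p = 0.0981 and 0.0712). Leaving out any 1 array ended the call (limma adjusted p = 0.0723 to 0.162), as did testing without the filter on dim probe sets (0.0874). An unadjusted limma p under 0.05 was reached by 3 of the 21 genes, against 18.1% of all genes. The median difference of the 21 genes was -0.04, beside -0.02 over all genes.

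GLI target genes gave no call, where 2.13% of all genes were called. Of 17 measured genes other than GLI1 and PTCH1, 11 were expressed, and 9 had a positive difference and 2 a negative one, with a median of 0.06, beside 43.3% positive and a median of -0.02 over all genes. CCND2, a cyclin that drives entry into S phase, had 7.96, 7.94 and 8.27 in anti-miR-21 arrays, against 7.56, 7.62 and 7.77 in mock arrays. All anti-miR-21 arrays lay above all mock arrays, and the difference of 0.41 did not pass (95% interval 0.16 to 0.66, limma adjusted p = 0.112). CCND1, a related cyclin, differed by 0.07 (limma adjusted p = 0.468). At an unadjusted p under 0.05, 1 of the 11 passed, against 18.1% of all genes.

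Intraflagellar transport carries cargo along the cilium and is needed for Hedgehog signalling in mammals. Of 30 measured genes of this machinery, 28 were expressed, 2 fell, none rose and 26 did not pass, where 1.22% of all genes fell and 0.913% rose. An unadjusted limma p under 0.05 was reached by 4 of the 28, against 18.1% of all genes. The median difference was -0.04, beside -0.02 over all genes. Both that fell encode subunits of the IFT-B particle. IFT70A had 7.61, 7.62 and 7.33 in anti-miR-21 arrays, against 8.37, 8.22 and 8.10 in mock arrays. With no overlap between the groups, IFT70A was 1.64-fold lower in anti-miR-21 cells (log2 difference -0.71 ± 0.10 SE, limma adjusted p = 0.0260). IFT46 had 9.25, 8.96 and 9.17 in anti-miR-21 arrays, against 9.58, 9.59 and 9.66 in mock arrays.

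The IFT46 groups did not overlap either, and its level was 1.40-fold lower in anti-miR-21 cells (log2 difference -0.49 ± 0.08 SE, limma adjusted p = 0.0363). IFT70B, a close paralog of IFT70A named after its values were seen, had probe sets at -0.19 and -0.48 that did not pass (limma adjusted p = 0.522 and 0.167), so the separate value of IFT70A is uncertain. Without anti-miR-21 replicate 1 both calls held (limma adjusted p = 0.0413 for IFT70A and 0.0349 for IFT46). Without any 1 of the other 5 arrays neither passed (up to 0.107 for IFT70A and 0.132 for IFT46), nor did either without the filter on dim probe sets (0.0568 and 0.0706). IFT88, a core IFT-B subunit named after its values were seen, lay below the threshold.

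Genes of the ciliary gate, of the BBSome, a carrier of ciliary membrane proteins, and of ciliogenesis were broadly expressed, at 43 of 44 measured. None was called on its representative probe set, where 2.13% of all genes were. At an unadjusted p under 0.05, 8 of the 43 passed, close to the share over all genes (18.1%). Of the 43 differences 28 were negative, as were 56.7% over all genes, and the median was -0.05, beside -0.02 over all genes. B9D1 and TMEM216 encode proteins of the transition zone, the barrier between cilium and cell body. B9D1 had 10.40, 10.29 and 10.43 in anti-miR-21 arrays, against 10.64, 10.73 and 10.77 in mock arrays, a difference of -0.34 (limma adjusted p = 0.0505). Its second probe set lay at -0.36 (limma adjusted p = 0.0508) and its dimmest at 0.11, with all anti-miR-21 arrays above mock arrays (limma adjusted p = 0.376). TMEM216 had 8.77, 8.61 and 8.84 in anti-miR-21 arrays, against 9.03, 9.10 and 9.14 in mock arrays, a difference of -0.35 (limma adjusted p = 0.0688). On these representative probe sets the groups of both genes did not overlap, where they did not for 24.0% of all expressed probe sets. Among the 36 further probe sets of this list 1 was called, where 2.17% of all expressed probe sets were. It belongs to EHD1, a membrane-shaping protein of early ciliogenesis named after its values were seen. That EHD1 probe set rose (log2 difference 0.52, limma adjusted p = 0.0486), and the other 4 of the gene lay between 0.18 and 0.30 without passing. With anti-miR-21 replicate 1 left out the EHD1 call held (limma adjusted p = 0.0230), and it was lost without any 1 of the other 5 arrays (up to 0.175) and without the filter (0.0985).

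**Figure D3:**
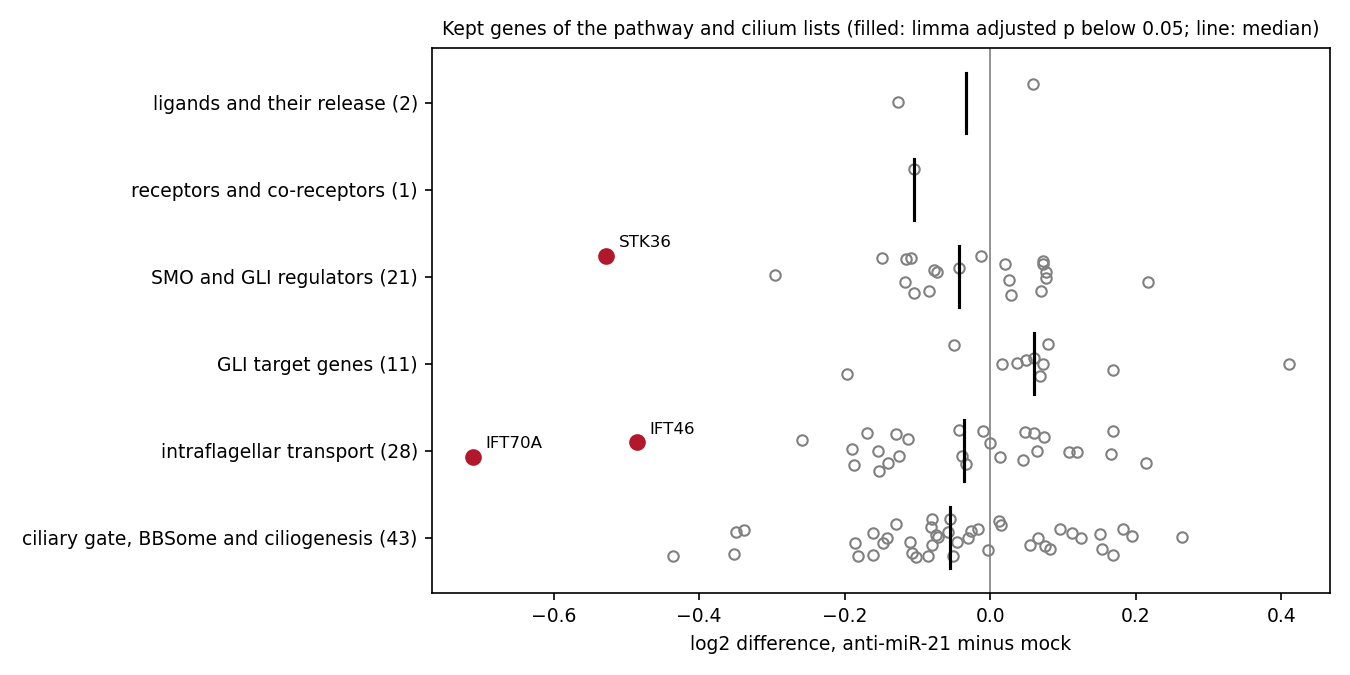
Log2 difference, anti-miR-21 minus mock (horizontal axis), for the expressed genes of 6 Hedgehog and cilium lists (rows, with the number of genes), 1 representative probe set per gene. Filled red points (STK36 at -0.53, IFT70A at -0.71 and IFT46 at -0.49) passed at a limma adjusted p under 0.05, open points did not, and black lines mark list medians between -0.11 and 0.06.

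None of the expressed genes around EFCAB7 on chromosome 1 was called, where 2.13% of all genes were. The neighbours were taken as the nearest 3 genes on each side, by order in the RefSeq table of GRCh38.p14, that have a single-gene probe set. ITGB3BP, a centromere protein gene that shares the promoter region printed above, had 12.20, 11.99 and 12.05 in anti-miR-21 arrays, against 11.91, 12.10 and 11.98 in mock arrays. The groups overlapped, and the difference of 0.08 did not pass (95% interval -0.11 to 0.27, limma adjusted p = 0.641). PGM1, a phosphoglucomutase on the other side of EFCAB7, differed by -0.08 (95% interval -0.26 to 0.09, limma adjusted p = 0.602). ALG6, a glucosyltransferase of protein glycosylation, differed by -0.12 (limma adjusted p = 0.509) and ROR1, a receptor tyrosine kinase-like protein, by 0.07 (limma adjusted p = 0.525), with 2 other ROR1 probe sets at 0.01 and 0.23 (limma adjusted p = 0.957 and 0.372). FOXD3, a transcription factor, and ROR1-AS1, a transcript antisense to ROR1, lay below the threshold.

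**Figure D4:**
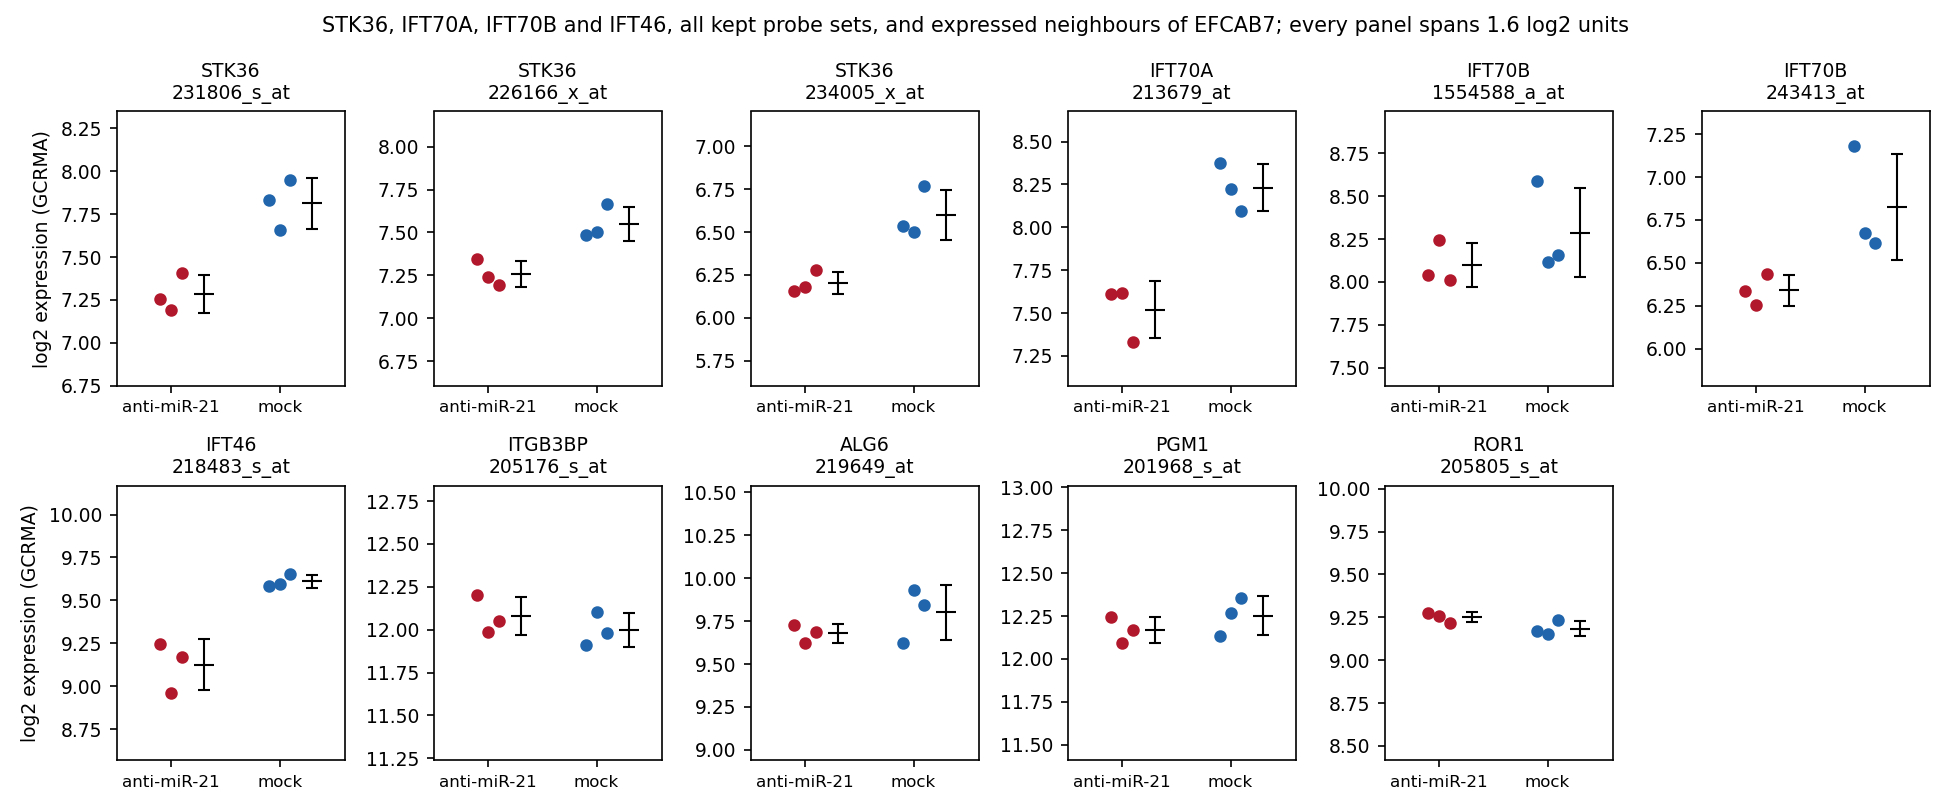
Log2 expression (vertical axis) in 3 anti-miR-21 arrays (left, red) and 3 mock arrays (right, blue), with group mean and SD in black and the same span in every panel, for all expressed probe sets of STK36, IFT70A, IFT70B and IFT46 and for the representative probe sets of 4 expressed neighbours of EFCAB7. The groups are apart for STK36, IFT70A and IFT46 and overlap for ITGB3BP, ALG6, PGM1 and ROR1.

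The EF-hand calcium-binding genes that share the EFCAB name gave no call. Of 8 such genes with 26 single-gene probe sets, EFCAB11 and EFCAB14 were expressed, on 5 probe sets. EFCAB14 lay at 0.05 to 0.12 on its 4 expressed probe sets and EFCAB11 at 0.00 on 1. None of them was called (limma adjusted p = 0.265 to 0.987), where 2.17% of all expressed probe sets were. At an unadjusted p under 0.05, 1 of the 5 passed (EFCAB14, at 0.12), against 17.8% of all expressed probe sets.

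The genes with the profile most like that of EFCAB7 were sought among the representatives of the other 10847 genes. Likeness was measured as the root mean square distance, in log2 units over the 6 arrays, between profiles centred on their own mean. The closest was the long noncoding RNA LINC01139, at a distance of 0.162, with 7.12, 7.43 and 7.35 in anti-miR-21 arrays, against 8.74, 8.55 and 8.16 in mock arrays. CCNH, a cyclin partner of CDK7, followed at 0.189. SMG9, of nonsense-mediated decay, stood at 0.260, ERAL1, of mitochondrial ribosome assembly, at 0.278 and DENND5A, a Rab exchange factor, at 0.278, all with anti-miR-21 arrays below mock arrays. The measure favours genes with a drop of similar size, and with 6 arrays it is a description only. The expressed Hedgehog genes lay at 0.645 (PTCH1) to 0.786 (GLI3). Any gene without a similar drop lies far from EFCAB7 by construction, so these distances show nothing particular to the Hedgehog genes.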

How the data were processed

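RNA from 6 samples (3 anti-miR-21, 3 mock) was hybridised to single-colour arrays. Per the submitters' processing notes, the log2 expression values that the authors deposited come from GCRMA; version and settings: not given in the sources used here. GCRMA corrects background, normalizes between arrays and compresses dim probe sets near the floor, so differences there are understated. The number of arrays limits the precision.

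Values were used as deposited. The 62 control probe sets were left out, and probe sets were named through the platform annotation and Entrez identifiers (41037 of 41091 single-gene probe sets matched the RefSeq table of GRCh38.p14, the others keeping the annotation's symbol). Probe sets with a mean of at least 4 were kept (22408, 41.0%), and each gene is given by the brightest of its kept single-gene probe sets, its representative. Groups were compared in R 4.3.3 by a limma fit without covariates (version 3.58.1, lmFit followed by eBayes). Tests were two-sided, p-values were adjusted by Benjamini-Hochberg over every kept probe set, and the threshold was 0.05. In data simulated for this comparison over 22408 probe sets, 88 of 100 changes of 1.5-fold and 100 of 100 of 2-fold were recovered, with 9 false calls. The simulated noise was normal and independent between probe sets, with no deviation shared across an array. These rates may therefore not hold for the real arrays. Members and lists were chosen with earlier results of these data known. All member probe sets are named. From each list the called genes, or the 2 with the smallest p, are named, and names outside that rule are marked. Alternatives were the filter, median centring, quantile normalization, eBayes with trend and robust options, a replicate block, averaging of a gene's probe sets and leaving out each array. Python 3.11.15, pandas 2.3.3 and matplotlib 3.10.9 made the tables and plots.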

Additional observations from a re-analysis of the deposited data

How the results depend on the processing

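EFCAB7 had a log2 difference between -1.50 and -1.31 as each array was left out. Its direction could not change there, since all anti-miR-21 arrays lay below all mock arrays and the gene was chosen for this drop. The filter, the eBayes options, the replicate block and averaging leave its difference unchanged by construction. No probe set of the other 9 genes was called under any alternative. Over all expressed probe sets 247 were higher and 239 lower in anti-miR-21 cells. The higher count was 158 without the filter and 54 with the replicate block, and the lower count 37 with the block; leaving out 1 array gave 47 to 345 higher and 47 to 227 lower. The deviations of same-numbered arrays were not positively correlated (-0.36, -0.27 and -0.00). Deviations within so small a group depend on each other, so these correlations cannot show whether the numbers pair the samples. The single fall among SMO and GLI regulators was 0 without the filter, with the replicate block, and with any 1 array left out (0 to 0). The 2 falls in intraflagellar transport were 0 without the filter, 1 with the block and 0 to 2 with 1 array left out. In the ciliary gate list 2 genes fell with the filter at 6 (B9D1 and TMEM216) and 1 with the trend and robust options (B9D1). Small differences changed sign. IQCE was -0.0142 with its probe sets averaged, and with 1 array left out IQCE ran from -0.0224 to 0.0150, EVC from -0.0972 to 0.0201, EVC2 from -0.0520 to 0.126, SMO from -0.0724 to 0.0181, GLI3 from -0.188 to 0.172 and EFCAB11 from -0.0261 to 0.0194. The filter at 6 removes EVC2 and GLI2, so they have no value there. Over all expressed probe sets, the median signed shift of the difference was -0.002 with median centring and -0.0002 with quantile normalization. Shifts of opposite sign cancel in such a median. Under quantile normalization single probe sets moved further, such as that of EVC2 from 0.0538 to 0.0262. The cause of these changes was not tested, beyond the smaller number of arrays or larger number of probe sets tested that some settings have by construction.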
